A study of Homo sapiens with 6 samples.

Results

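The genes described here are a set of 10 myeloid receptor and integrin genes, TYROBP, FCER1G, LAPTM5, MYO1F, ITGB2, ITGAM, ITGAX, PTPN6, ALOX5 and SPI1, out of 31142 genes in the deposited table. They were chosen by their expression in these libraries, because several were lower in cells with S34F mutant U2AF1 than in cells with wild-type U2AF1, so the difference between the groups is described for them without a test. All 10 symbols were found, each under 1 gene identifier. The libraries were labelled as SKM-1, a human line of acute myeloid leukemia that arose from a myelodysplastic syndrome (MDS), in which U2AF1, the small subunit of the U2AF splicing factor that binds the 3' splice site, was expressed with a FLAG tag from a stably transduced lentiviral vector. The 3 S34F libraries carried the mutant with phenylalanine in place of serine in the first zinc finger, the 3 WT libraries carried the wild-type form, and RNA was taken after 96 h. The methods describe a ubiquitin promoter, puromycin selection and a fluorescent reporter for the vector, and the cells kept their own wild-type U2AF1. The WT samples bear a prefix that the study uses for negative controls and its methods speak of a vehicle control, so they were grouped by the wild-type form in their titles. The labels do not say whether the replicates were separate transductions, so the p-values given measure only the spread between these libraries.

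Myeloid cells sense their surroundings through receptors that often lack a signalling tail of their own and borrow one from a small adaptor. TYROBP (also called DAP12) and FCER1G (the Fc receptor common gamma chain) are such adaptors, with a tyrosine motif named ITAM that recruits the kinase SYK once Src family kinases have phosphorylated it. PTPN6, or SHP-1, is the phosphatase that opposes these signals. ITGB2 is the beta 2 integrin chain, which pairs with ITGAM (CD11b) or ITGAX (CD11c) on monocytes, neutrophils and dendritic cells, and SPI1 encodes PU.1, the ETS transcription factor that drives many genes of this lineage.

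Each library had an approximate depth of 20.5 to 26.1 M fragments. U2AF1 itself had 9.24, 9.48 and 9.18 FPKM in the S34F libraries and 8.67, 8.70 and 7.65 FPKM in the WT libraries, and gene-level values cannot separate the mutant from the wild-type allele. FPKM are fragments scaled to transcript length and to the mapped fragments of the library, so levels of different genes can be set side by side. The markers went against the labelled myeloid line in part, with those of the monocytic and granulocytic lineage mostly near 0 and those of the erythroid lineage high. Of 15 monocytic and granulocytic markers in the table, 11 had a mean under 1 FPKM, among them MPO, FCN1 and S100A8, which were at 0 in at least 1 library each, and CSF1R, the receptor for the monocyte growth factor, which had no more than 0.0468 FPKM. LYZ and CD68 were present, at a mean of 15.7 and 46.3 FPKM. All 14 erythroid markers averaged at least 1 FPKM, with a median of 262 FPKM and HBE1, embryonic epsilon globin, at 5461 FPKM. The study also worked with K562, a line of chronic myelogenous leukemia, and the identity of the cells in these libraries was not tested. The summed monocytic and granulocytic markers had 45.7 to 75.5 FPKM in S34F and 65.7 to 88.2 FPKM in WT. The summed erythroid markers also overlapped, but with the higher range in S34F, at 12215 to 13977 FPKM in S34F and 11801 to 12924 FPKM in WT. The summed lymphoid markers did not overlap, with 10.2 to 17.9 FPKM in S34F and 19.0 to 19.98 FPKM in WT, most of it CD3D at a mean of 14.4 FPKM. Among the 9 lymphoid markers measured, 7 averaged under 1 FPKM, and the part of these lists in the differences described here was not tested. In bulk RNA, fewer cells of a type and less RNA per cell cannot be told apart. Over the whole table, the deviations of the libraries numbered 3 from their group means correlated with each other at 0.38. They ran against those of the other libraries of the opposite group (correlations from -0.295 to -0.205). Deviations cancel out within a group, so these negative values follow in part from the positive one. S34F replicate 3 had the most genes above 0, 25142 against 23227 to 24505. Values without the libraries numbered 3 are therefore given where they differ.

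The promoters of the members are shown first, since PU.1, the product of one of them, binds a purine-rich ETS site. RefSeq promoters of GRCh38.p14, from 250 bases before to 50 bases after the gene start, were held for 6 of the 10 genes, with 2 starts for PTPN6. The gene start here is that of the promoter. For LAPTM5 and MYO1F, among others, it differs from the gene coordinates given below. ITGB2, ITGAX, ALOX5 and SPI1 were not matched. The letters GAGGAA and GGAAGT were searched on both strands, together with GAGGAAGT, in which they overlap. GAGGAA was found for 4 of the 6 genes and in 27.9% of all 35116 promoters, and GGAAGT for 4 of the 6 and in 22.8%. The full GAGGAAGT was found for 2 of the 6, TYROBP and PTPN6, and in 2.59% of all promoters. FCER1G held none of the 3. The counts are of genes, with PTPN6 counted for a match at either start, while the percentages are of promoters. For each of the 5 genes with a match, the 8-letter match or, without one, the match closest to the gene start is printed as 30 bases, 5′ to 3′, on the strand on which the letters read as given, with the matched letters in capitals.
TYROBP: ggcaagtgaagGAGGAAGTctgaggcgggt
PTPN6: gcaggatcgagGAGGAAGTggctgattact
LAPTM5: aaggggcaggaaGGAAGTgaggagggcagc
MYO1F: gggctgttgtaaGAGGAActaaagccggga
ITGAM: gcaggcaccactGAGGAAccacaaggaagc
The TYROBP site (chr19:35908289-35908318) is read on the strand opposite to the gene, with the match from -12 to -5 relative to the gene start. The PTPN6 site (chr12:6946590-6946619) follows its first start, at 25 to 32. The LAPTM5 match lies from -70 to -65 (chr1:30757827-30757856), the MYO1F match from -4 to 2 (chr19:8577429-8577458) and the ITGAM match, on the opposite strand, at 30 to 35 (chr16:31259992-31260021). A match of letters is a description of the window and does not show binding of PU.1.

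All 10 genes had a lower mean in S34F than in WT, and in 8 of them every S34F library lay below every WT library. Among the genes with a mean of at least 0.1 FPKM, which include all 10, 4.25% had groups separated in this direction. As the members were selected on this contrast, nothing is read from their count. The median ratio of the S34F mean to the WT mean was 0.574. On the log2(FPKM + 1) scale the median difference over the 10 members was -0.39, beside 0.006 over all 18329 genes with a mean of at least 0.1 FPKM. This scale understates the change of low genes, and the median over the members was -0.64 with a pseudocount of 0.1. The members spanned a wide range of levels. In WT the order ran from LAPTM5 (20.3 FPKM) through ALOX5 (11.3), SPI1 (11.2), TYROBP (4.05), MYO1F (3.76), ITGAM (3.03), PTPN6 (0.543), ITGAX (0.359) and FCER1G (0.175) to ITGB2 (0.170 FPKM). The libraries of neighbours in that order overlapped for ALOX5 and SPI1, for TYROBP and MYO1F, for MYO1F and ITGAM, and for FCER1G and ITGB2. In S34F, SPI1 stood above ALOX5, again with overlap, and the other places were the same. The mean over the 6 libraries was at least 1 FPKM for 6 members, and PTPN6, ITGAX, FCER1G and ITGB2 were below it.

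**Figure D1:**
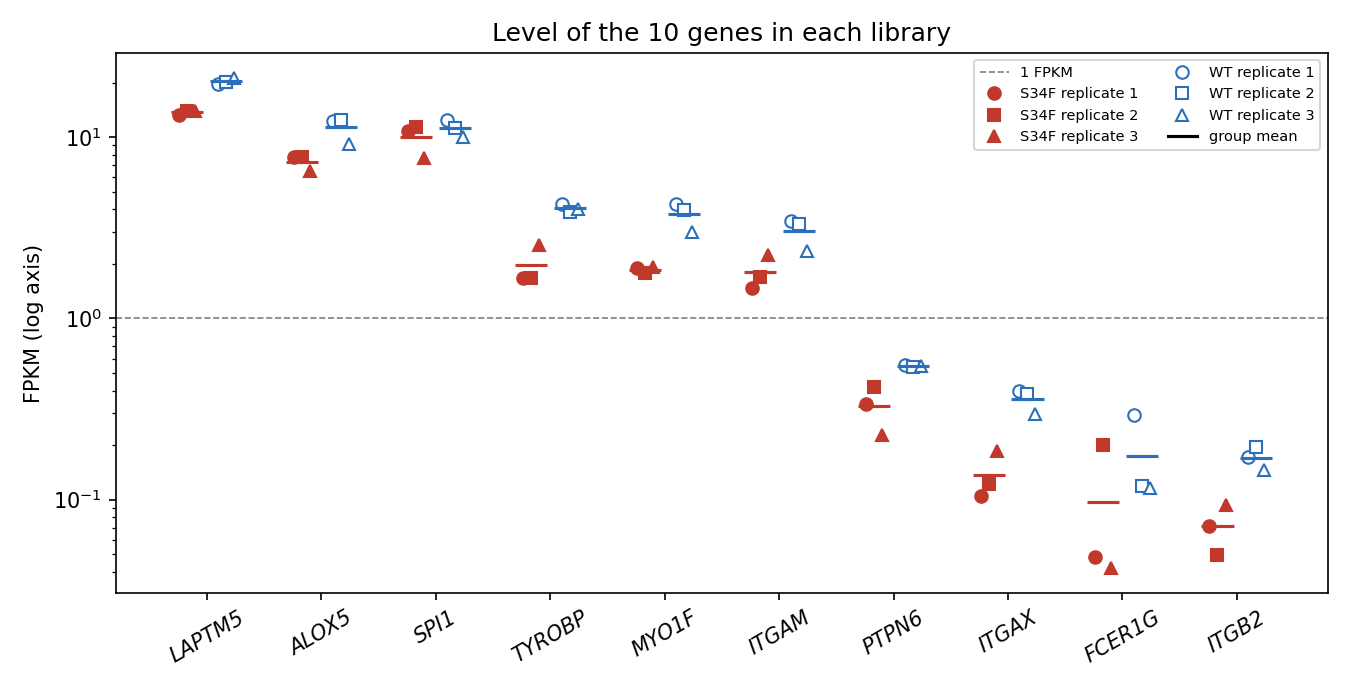
FPKM on a log axis of the 10 genes in each of the 3 S34F (filled) and 3 WT (open) libraries, with the group means as bars and 1 FPKM as a dashed line. The S34F libraries lie below all WT libraries for every gene except SPI1 and FCER1G, and 4 genes lie under 1 FPKM.

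Of the adaptors, TYROBP (ENSG00000011600, chromosome 19 of GRCh38 in GENCODE 29, 35904401 to 35908295, minus strand) had 1.67, 1.68 and 2.55 FPKM in S34F replicates 1, 2 and 3 and 4.29, 3.88 and 3.99 FPKM in the WT replicates. S34F replicate 3 was the highest of its group and still 1.33 FPKM under the lowest WT library. S34F averaged 1.97 ± 0.509 and WT 4.05 ± 0.214 FPKM (SD, n = 3 each). The means stood in a ratio of 0.485, and the log2 difference was -0.78 with a standard error of 0.14 from limma. It ran from -0.92 to -0.71 when each library was left out in turn. The mRNA is short, with a longest coding transcript of 620 bases, so these levels stand for roughly 21.2 to 68.8 fragments a library. FCER1G (ENSG00000158869, chromosome 1, 161215234 to 161220699, plus strand) had 0.0480, 0.200 and 0.0418 FPKM in S34F and 0.292, 0.119 and 0.116 FPKM in WT. S34F replicate 2 lay above WT replicates 2 and 3, and the groups overlapped. The highest of these values corresponds to about 4.46 fragments, so a difference in FCER1G was not detectable at this depth. TYROBP thus exceeded FCER1G by 8.40 to 61.2 times in FPKM, a ratio set by the few FCER1G fragments.

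MYO1F and LAPTM5 are leukocyte genes without a receptor function of their own. MYO1F (ENSG00000142347, chromosome 19, 8520790 to 8577577, minus strand), a class I myosin of immune cells that works at the actin cortex, had 1.90, 1.77 and 1.92 FPKM in S34F and 4.28, 3.98 and 3.01 FPKM in WT. The S34F values were tight, at 1.86 ± 0.0774 FPKM (SD, n = 3), while WT replicate 3 was lower than the other WT libraries, which gave 3.76 ± 0.664 FPKM (SD, n = 3). The ratio was 0.496 and the log2 difference -0.72 (standard error 0.13 from limma). LAPTM5 (ENSG00000162511, chromosome 1, 30732469 to 30757820, minus strand), a lysosomal membrane protein of hematopoietic cells, was the most abundant member, with 13.2, 13.9 and 14 FPKM in S34F and 19.6, 20.1 and 21.3 FPKM in WT. The gap between the groups was 5.53 FPKM, and the SD was 0.483 FPKM in S34F and 0.902 FPKM in WT. Its ratio was 0.674 and its log2 difference -0.54 (standard error 0.10 from limma), and its difference varied least among the 6 members above 1 FPKM, from -0.56 to -0.50, when each library was left out in turn. In FPKM, the ratio of S34F to WT within same-numbered libraries was 0.672, 0.691 and 0.658 for LAPTM5 and 0.443, 0.445 and 0.637 for MYO1F.

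The beta 2 integrin genes were unequal in level. ITGAM (ENSG00000169896, chromosome 16, 31259967 to 31332892, plus strand) had 1.48, 1.70 and 2.25 FPKM in S34F and 3.43, 3.30 and 2.35 FPKM in WT. The libraries numbered 3 nearly met, with 0.0999 FPKM between the highest S34F and the lowest WT library, and the ratio within that pair was 0.958, against 0.431 and 0.514 in the others. S34F averaged 1.81 ± 0.400 and WT 3.03 ± 0.587 FPKM (SD, n = 3 each), with a log2 difference of -0.52 (standard error 0.16 from limma) that was -0.76 without the libraries numbered 3. ITGAX (ENSG00000140678, chromosome 16, 31355134 to 31382997, plus strand), its neighbour on the same chromosome and strand, had 0.105, 0.122 and 0.185 FPKM in S34F and 0.398, 0.382 and 0.296 FPKM in WT. All S34F libraries were below all WT libraries, and the ratio of means, 0.383, was the lowest of the 10 members, at roughly 10.1 to 48.4 fragments a library. Its log2 difference of -0.26 was -0.32 without the libraries numbered 3. ITGAM exceeded ITGAX by 14.1, 14 and 12.1 times in the S34F libraries and by 8.60, 8.65 and 7.95 times in the WT libraries. Both genes were chosen on the contrast between these groups and ITGAX rests on few fragments, so nothing is read from this ratio.

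ITGB2 (ENSG00000160255, chromosome 21, 44885953 to 44931989, minus strand), the chain both alpha chains need to reach the cell surface, was the lowest member, with 0.0714, 0.0493 and 0.0936 FPKM in S34F and 0.171, 0.195 and 0.146 FPKM in WT. Its groups did not overlap, with a ratio of means of 0.419, but its values stand for only about 3.63 to 16.2 fragments a library. The log2 difference of ITGB2 was -0.13, and -0.16 without the libraries numbered 3. ITGAM exceeded ITGB2 by 16.2 to 34.4 times over the 6 libraries. The remaining alpha chains of the beta 2 family, named here for their role after their values were seen, were near 0. ITGAL had at most 0.0176 FPKM and ITGAD at most 0.0192 FPKM in any library.

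PTPN6 (ENSG00000111679, chromosome 12, 6946468 to 6961316, plus strand) had 0.336, 0.419 and 0.227 FPKM in S34F and 0.550, 0.536 and 0.543 FPKM in WT. The WT values were nearly equal, at 0.543 ± 0.00717 FPKM (SD, n = 3), and the S34F values spread more, at 0.328 ± 0.0966 FPKM (SD, n = 3), with S34F replicate 3 the lowest. The ratio was 0.603, at roughly 13.4 to 34 fragments a library. ALOX5 (ENSG00000012779, chromosome 10, 45374176 to 45446119, plus strand), the 5-lipoxygenase that starts leukotriene synthesis, had 7.72, 7.72 and 6.46 FPKM in S34F and 12.3, 12.5 and 9.21 FPKM in WT. The library numbered 3 was the lowest of each group, and the groups stayed 1.49 FPKM apart. Its means of 7.30 ± 0.727 and 11.3 ± 1.83 FPKM (SD, n = 3 each) gave a ratio of 0.645 and a log2 difference of -0.56 (standard error 0.15 from limma).

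SPI1 (ENSG00000066336, chromosome 11, 47354860 to 47378576, minus strand) differed least in ratio. It had 10.8, 11.4 and 7.64 FPKM in S34F and 12.4, 11.2 and 10.04 FPKM in WT. S34F replicates 1 and 2 lay within the WT range and S34F replicate 3 was below all other libraries. S34F averaged 9.95 ± 2.03 and WT 11.2 ± 1.16 FPKM (SD, n = 3 each), the ratio being 0.889. Its log2 difference of -0.17 (standard error 0.17 from limma) moved to -0.01 without S34F replicate 3 and to -0.08 without both libraries numbered 3, so the lower mean of SPI1 rested on that library.

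**Figure D2:**
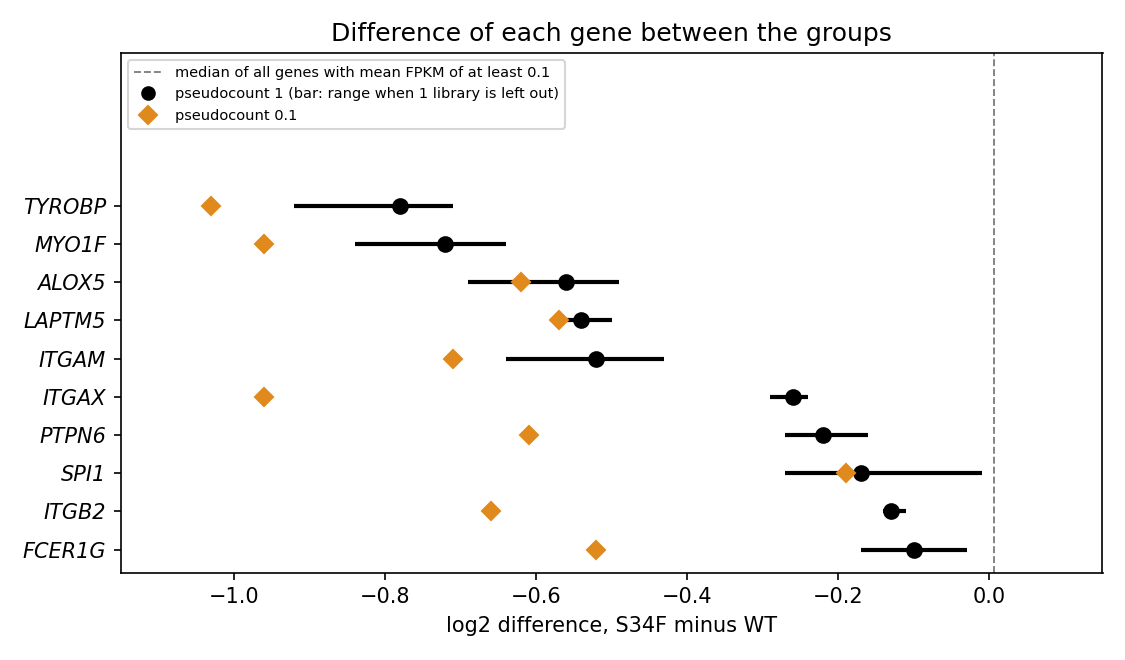
Log2 difference between the S34F and WT group means for each gene, with a pseudocount of 1 (circles, with the range over fits that leave out 1 library) and of 0.1 (diamonds), beside the median of all genes (dashed). TYROBP and MYO1F lie lowest with a pseudocount of 1, at -0.78 and -0.72, and the low genes ITGAX and ITGB2 move most with the pseudocount, to -0.96 and -0.66.

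The related genes outside the set were tested with limma on log2(FPKM + 1), in a fit over all genes with a mean of at least 1 FPKM. A gene was called differentially expressed (DEG) at a fold above 1.5 with an unadjusted p under 0.05, and no such call is given for the members. Over the 10942 genes tested, 0.375% were lower past these limits and 0.210% higher. After Benjamini-Hochberg adjustment over all genes tested, 0 genes, or 0%, had a p under 0.05 from limma, and 262 had an unadjusted p under 0.05. The count of genes with an adjusted p under 0.05 from limma was 1 without S34F replicate 1, 3 without WT replicate 3 and 8 without both libraries numbered 3.

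The members did not vary alike within the groups. In S34F, replicate 3 was the highest library for 6 members (TYROBP, LAPTM5, MYO1F, ITGB2, ITGAM and ITGAX) and the lowest for the other 4 (FCER1G, PTPN6, ALOX5 and SPI1). In WT, replicate 3 was the lowest for 7 members, and for LAPTM5 it was the highest. Between libraries of the same replicate number, 8 members were lower in S34F in 3 of 3 pairs, which 12.7% of the genes with a mean of at least 0.1 FPKM were. SPI1 and FCER1G were lower in 2 of 3 pairs, with the pair numbered 2 as the exception for each. The members summed to 37.3, 39.0 and 35.4 FPKM in S34F and 57.6, 56.2 and 51.0 FPKM in WT, and LAPTM5, ALOX5 and SPI1 made up most of each sum.

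**Figure D3:**
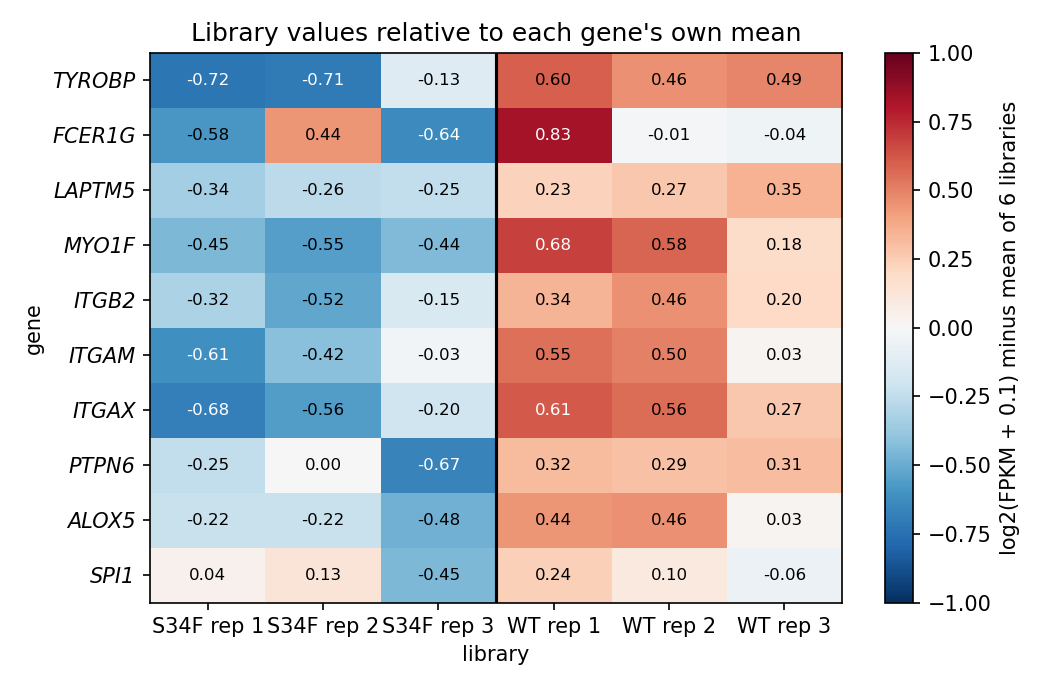
Value of each gene in each library on the log2(FPKM + 0.1) scale, relative to its mean over the 6 libraries. The integrin genes, TYROBP and MYO1F are lower in S34F replicates 1 and 2 than in the WT replicates, ITGAM is near its mean in both libraries numbered 3 (-0.03 and 0.03), and SPI1 is low in S34F replicate 3 (-0.45).

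To see whether the genes around the members moved too, 9 lists of their receptors, signalling partners, relatives and targets were examined in the same fit, without the members. Of 271 listed genes, 240 were in the table and 112 passed the filter. Of these, 3 were past the DEG limits, all lower in S34F: AIF1, CD52 and SELPLG. This is 2.68% of the 112, and the background of lower genes is the 0.375% given above. The lists were chosen with earlier results of these data known, so nothing is read from this share. None of the 112 had an adjusted p under 0.05 from limma, and 8 of the 112 had an unadjusted p under 0.05. The 3 genes also lay past the limits under 3 other scalings, with a filter of 0.1 FPKM, with a pseudocount of 0.1, with the replicate number as a block and without any single library.

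AIF1, an actin-bundling protein of macrophages, came from the list of PU.1 targets of myeloid cells. It had 2.03, 2.31 and 3.16 FPKM in S34F and 5.35, 4.56 and 4.32 FPKM in WT, and the groups did not overlap. Its log2 difference was -0.72 (standard error 0.15, unadjusted p = 0.00209, adjusted p = 1 from limma, with adjusted p from 0.109 to 1 over 18 fits). CD52, a small surface glycoprotein of leukocytes, had 7.19, 7.86 and 11.2 FPKM in S34F and 14.5, 15.8 and 16.9 FPKM in WT, again without overlap. Its log2 difference was -0.80 (standard error 0.17, unadjusted p = 0.00214, adjusted p = 1 from limma, from 0.109 to 1 over the fits). SELPLG, the leukocyte ligand of P-selectin, had 4.92, 5.02 and 8.08 FPKM in S34F and 10.8, 11.1 and 9.54 FPKM in WT. Its log2 difference was -0.74 (standard error 0.18, unadjusted p = 0.00551, adjusted p = 1 from limma, from 0.0615 to 1 over the fits). In all 3, S34F replicate 3 was the highest S34F library. Without both libraries numbered 3 the log2 differences of AIF1, CD52 and SELPLG were -0.91, -0.92 and -1.0 (adjusted p = 0.109, 0.109 and 0.0615 from limma).

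The list of PU.1 targets of myeloid cells had 6 genes that could be tested out of 31 in the table. All 6 were lower in S34F, with a median log2 difference of -0.42 against 0.015 over all genes tested. Among genes with a mean of at least 0.1 FPKM, 47.8% were lower. The other 25 listed genes were under the filter, and their group means differed in both directions. Only AIF1 passed the limits. CYBA, a subunit of the phagocyte oxidase, was the most abundant, at a mean of 100.5 and 104 FPKM in S34F and WT, with a log2 difference of -0.07 (unadjusted p = 0.65, adjusted p = 1 from limma). CD68, a lysosomal glycoprotein of macrophages, had a difference of -0.33 (unadjusted p = 0.139, adjusted p = 1 from limma). LYZ, or lysozyme, had 8.52 and 8.82 FPKM in S34F replicates 1 and 2 but 23.2 FPKM in S34F replicate 3, above the WT values of 18.8, 17 and 17.6 FPKM. CTSS, a cysteine protease of antigen-presenting cells, showed the same split, with 2.37, 2.78 and 7.73 FPKM in S34F and 6.15, 6.31 and 6.61 FPKM in WT. Their log2 differences of -0.52 and -0.61 had unadjusted p of 0.185 and 0.119 (adjusted p = 1 from limma). Without S34F replicate 3 they were -0.96 and -1.04, past the DEG limits (adjusted p = 0.109 for each from limma), and the count of listed genes past the limits rose from 3 to 5. The count over all genes tested rose from 64 to 180 in that fit.

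Of 33 genes in the pan-leukocyte list, which also holds the broadly expressed LAPTM4A, LAPTM4B and NEDD4 for their relation to LAPTM5, 20 were tested, 14 of them lower and 6 higher, with a median log2 difference of -0.21. CD52 and SELPLG were past the limits. ARHGDIB and SPN, with differences of -0.38 and -0.43, had unadjusted p of 0.0368 and 0.0388 (adjusted p = 1 from limma) without reaching the fold limit. The most abundant genes of the list were not past the limits. LAPTM4A and LAPTM4B, relatives of LAPTM5, and LCP1, an actin bundler of leukocytes, had differences of 0.13, 0.23 and 0.08 (unadjusted p = 0.625, 0.0945 and 0.749, adjusted p = 1 from limma). Of the class I myosins beside MYO1F, MYO1D and MYO1C were tested, with differences of -0.14 and -0.05 (unadjusted p = 0.3 and 0.69, adjusted p = 1 from limma), while MYO1G, the other hematopoietic member, had at most 0.0360 FPKM.

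The list of receptors and chains around ITAM adaptors, which also holds other adaptors and receptors with a motif of their own, was mostly under the filter, with 3 of 16 tested and 0 past the limits. FCGR2A, an Fc receptor with an ITAM in its own tail, was the most abundant, at 5.38 ± 2.21 (S34F) and 5.07 ± 0.769 FPKM (WT, SD, n = 3 each), and its log2 difference was 0.01 (unadjusted p = 0.969, adjusted p = 1 from limma). GP6 and PILRB had differences of 0.19 and -0.08 (unadjusted p = 0.362 and 0.577, adjusted p = 1 from limma). HCST, the adaptor gene DAP10 next to TYROBP, overlapped between the groups, with 0.0654 to 0.350 FPKM in S34F and 0.125 to 0.598 FPKM in WT. Downstream, 17 of 29 ITAM signalling genes were tested and 0 passed the limits, with 11 lower, 6 higher and a median log2 difference of -0.03. SYK had 4.51 ± 0.506 (S34F) and 4.93 ± 0.127 FPKM (WT, SD, n = 3 each), with a difference of -0.11 (unadjusted p = 0.357, adjusted p = 1 from limma). LYN and CSK, the Src family kinase and the kinase that holds it in check, had -0.03 and -0.00 (unadjusted p = 0.868 and 0.979, adjusted p = 1 from limma). The largest difference in this list was in GRB2, an adaptor of receptor kinases, at -0.68 (unadjusted p = 0.0672, adjusted p = 1 from limma). It had 52.2 FPKM in WT replicate 3 against 23.6 and 24.4 FPKM in the other WT libraries. With the replicate number as a block GRB2 passed the limits (unadjusted p = 0.0379, adjusted p = 0.994 from limma), as it did without WT replicate 1 and without WT replicate 2, at unadjusted p of 0.0402 and 0.0487 from limma. All of these fits keep WT replicate 3. GRB2 was not past the limits without WT replicate 3 or without both libraries numbered 3.

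Among the inhibitory receptors and partners of SHP-1, 8 of 23 were tested and 0 passed the limits, with a median log2 difference of -0.10. SIGLEC10 and CD33, sialic acid-binding receptors that recruit SHP-1, had differences of -0.37 and -0.33 with unadjusted p of 0.0165 and 0.0469 (adjusted p = 1 from limma). SIGLEC10 had 1.14, 1.01 and 0.916 FPKM in S34F and 1.54, 1.91 and 1.39 FPKM in WT, without overlap, and it passed the fold limit with a pseudocount of 0.1. PTPN11, the relative SHP-2, was at 10.5 ± 1.18 (S34F) and 9.72 ± 1.70 FPKM (WT, SD, n = 3 each), far above PTPN6, with a difference of 0.11 (unadjusted p = 0.494, adjusted p = 1 from limma). INPPL1 and DOK1 had -0.11 and 0.20 (unadjusted p = 0.321 and 0.452, adjusted p = 1 from limma).

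Of 36 integrin and integrin activator genes, 21 were tested and 0 passed the limits, with 11 lower, 10 higher and a median log2 difference of -0.02. FERMT3 (kindlin-3) and TLN1 (talin), which switch beta 2 integrins on from inside, were abundant at means of 66.5 and 45.3 FPKM, with differences of -0.14 and -0.09 (unadjusted p = 0.48 and 0.429, adjusted p = 1 from limma). ICAM4, an integrin ligand of red cells, had -0.06 (unadjusted p = 0.769, adjusted p = 1 from limma). In the leukotriene and prostaglandin list 12 of 27 genes were tested and 0 passed the limits, with a median of 0.03. ALOX5AP, the protein that presents arachidonic acid to ALOX5, had at most 0.0940 FPKM. PTGES3, PTGES2 and PTGS1 had 0.28, 0.01 and -0.25 (unadjusted p = 0.148, 0.97 and 0.08, adjusted p = 1 from limma). Of 38 partners of PU.1 and ETS factors, 23 were tested and 0 passed the limits, 7 lower and 16 higher, with a median of 0.04. GATA1, which antagonizes PU.1 in erythroid cells, had 183 ± 35.7 (S34F) and 186 ± 9.50 FPKM (WT, SD, n = 3 each), a log2 difference of -0.04 (unadjusted p = 0.786, adjusted p = 1 from limma). ELK1 and JUNB had -0.08 and 0.20 (unadjusted p = 0.485 and 0.324, adjusted p = 1 from limma).

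**Figure D4:**
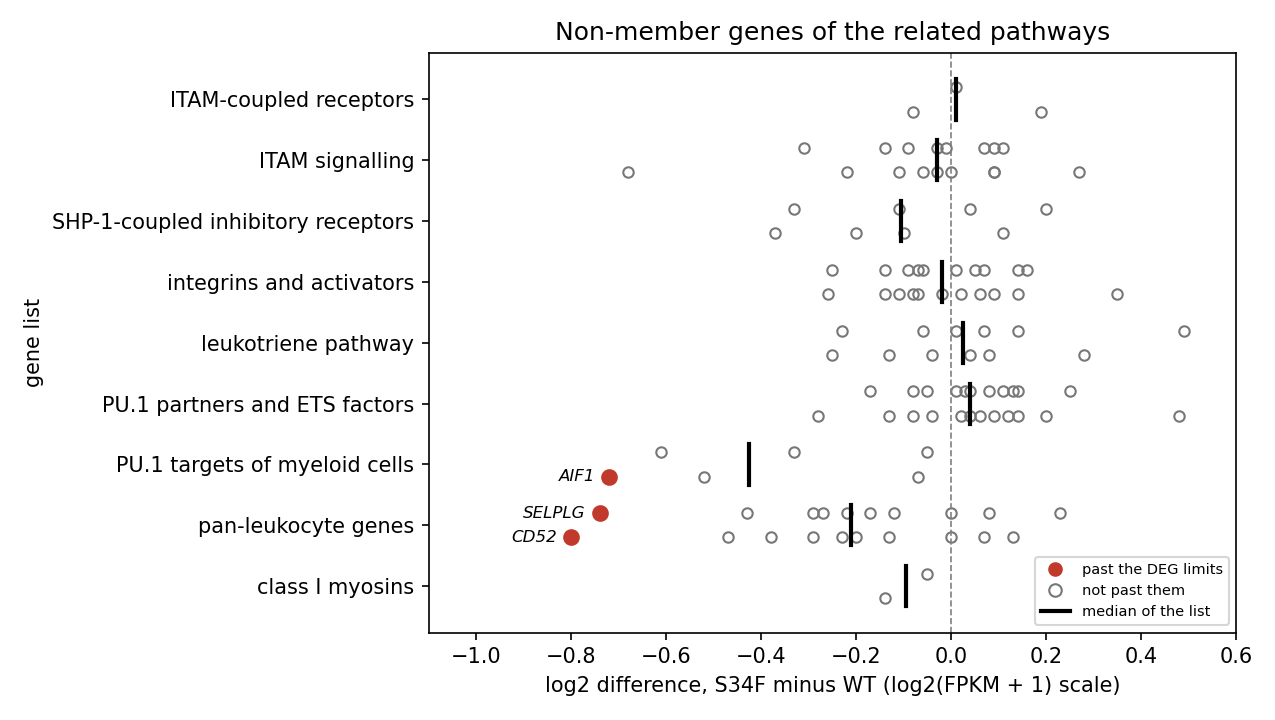
Log2 difference between S34F and WT on the log2(FPKM + 1) scale for each tested non-member gene of the 9 lists, with the list medians as bars and genes past the DEG limits filled. AIF1, CD52 and SELPLG lie lowest, from -0.80 to -0.72, and the medians of the other 7 lists lie between -0.10 and 0.04.

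The profile of the members was also compared with all other genes. The mean log2(FPKM + 0.1) of the 10 members in each library was correlated over the 6 libraries with 647 genes that reached 1 FPKM and ranged over at least 2 on that scale. The 12 most similar genes had Pearson correlations of 0.752 to 0.893, and 6 of them were annotated as protein-coding. RHOXF2B, an X-linked homeobox gene with a near-identical copy, had the highest correlation of these (0.870), with 4.56, 5.47 and 2.44 FPKM in S34F and 10.1, 9.54 and 9.13 FPKM in WT. FAM217B (0.786) and FABP1, a liver fatty acid-binding protein (0.752), were lower. MIR6820 (0.893) and MIR3189 (0.784) were microRNA genes and RNVU1-19 (0.804) a small nuclear RNA gene. MIR6820, MIR3189 and RNVU1-19 had at most 1.53, 2.33 and 2.16 FPKM in any library, and the fragments behind these low values were not estimated. The other 6 were a pair of genes listed as RF00003 and 4 genes with clone names. Of the latter, AC025165 (0.841) was at 0 in every S34F library and in WT replicate 3. None of the 12 belonged to the 9 lists. With 6 points that share 2 groups, these correlations describe likeness only.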

How the data were processed

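RNA-seq of 3 S34F and 3 WT libraries labelled as SKM-1 was taken from 1 table of 31142 genes. Its values were deposited by the authors as FPKM per gene and library, although the table is named for counts, and 100% of the values above 0 were not whole. The submitters' processing notes name StringTie and edgeR, without a role or version. The aligner, genome build and annotation are not given in the sources used here. The authors' own columns of fold changes, p-values and regulation were not used.

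Samples were grouped by their titles. The members and lists were chosen with earlier results of these data known. Genes with a mean of at least 1 FPKM (10942) were tested with limma 3.58.1 in R 4.3.3 on log2(FPKM + 1), with an intensity trend and without a block. The test is not a count test, since the values are not counts. The limits were a fold above 1.5 and an unadjusted p under 0.05, with Benjamini-Hochberg adjustment over all genes tested. In each list, the genes past the limits and the 3 most abundant tested genes are named. Other genes with an unadjusted p under 0.05 (1 is not reported here), those whose call changed with a setting, and partners of the members (SYK, HCST, ITGAL, ITGAD, ALOX5AP, CSF1R, PTPN11 and MYO1G) were named after their values were seen. Coordinates are from GENCODE 29 (GRCh38), matched by gene identifier, and promoter sequences from RefSeq (GRCh38.p14).

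Depth is not recorded in the table. It was approximated from the most common low value of FPKM times length in kilobases over 7995 single-exon genes, taken as 1 fragment (0.0383 to 0.0488). A cluster of still smaller values was taken to be single mates and left out, an assumption on which the depth rests. Fragments per gene follow from this depth and the longest coding transcript, so they are rough. Same-numbered libraries deviated together from their group means (correlations of 0.212, 0.174 and 0.38 for replicates 1, 2 and 3), each over 0.1. S34F replicate 2 correlated more with WT replicate 1, at 0.197, and S34F replicate 1 had 0.134 with WT replicate 2. Deviations from a group mean cancel out within the group, so these values cannot show that replicates 1 and 2 were paired. The replicate block was run beside the unblocked fit, which gave the errors and p-values printed unless stated. Alternatives were pseudocounts, filters, scalings, variants of the limma fit, the replicate block and leaving out each library. The limma script was tested on simulated data.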

Additional observations from a re-analysis of the deposited data

How the results depend on the processing

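All 10 members kept a lower mean in S34F under each pseudocount and scaling tried and without each library. They were selected on this contrast, and 47.8% of the genes with a mean of at least 0.1 FPKM were lower in S34F, so nothing is read from this count. The log2 difference was -0.01 for SPI1 without S34F replicate 3 and -0.03 for FCER1G without WT replicate 1. The median log2 difference over the members, -0.39, was -0.64 with a pseudocount of 0.1 and -0.87 with 0.01, and ran from -0.40 to -0.33 when each library was left out. The count of 8 members lower in all 3 pairs is already taken within pairs, so a block cannot change it. With the replicate number as a block, 4 listed genes were past the DEG limits against 3 without it, GRB2 being added. The number of listed genes past the limits ran from 3 to 5 when each library was left out. It was 5 without S34F replicate 3 and 5 without both libraries numbered 3, a fit chosen after seeing the data, and 0 at an adjusted p under 0.05 from limma, against 8 at an unadjusted p under 0.05. Over all genes tested, 64 genes passed the limits (64.1% lower), 122 with a pseudocount of 0.1 and 122 with 0.01, 180 without S34F replicate 3 and 183 without both libraries numbered 3. Without WT replicate 3 the count was 88, of which 53.4% were lower. The cause was not tested. FPKM keep no counts, so the error of the 4 members under 1 FPKM could not be set from reads, and FCER1G and ITGB2 rest on few fragments.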
